A study of Mus musculus with 12 samples.

Results

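PD-1 and its ligands were followed across the immune cells of MC38 tumors: Pdcd1, which encodes the receptor PD-1, Cd274, which encodes PD-L1, and Pdcd1lg2, which encodes PD-L2. The members were chosen by name and make up 3 of the 27457 gene rows of a 10x Genomics single-cell RNA-seq count table. MC38 is a colon carcinoma line of C57BL/6J (B6) origin. Its cells were implanted under the skin of female hosts of 8 to 12 weeks that were either B6 or F1 offspring of B6 and 1 of 7 Collaborative Cross strains, namely CC001/UncJ, CC002/UncJ, CC007/UncJ, CC036/UncJ, CC075/UncJ, CC079/TauUncJ and CC080/TauUncJ. Once a tumor measured 75 to 110 mm3 its host was given, at 200 µg and 1 time only, either the PD-1-blocking antibody (aPD1) or its isotype control, and tumors were taken 48 h later, dissociated, and sorted to 90% CD45+ and 10% CD45- cells. The 48 tumors (24 isotype, 24 aPD1) were run as 12 pools of 4 hashtagged specimens, each pool holding an isotype and an aPD1 tumor from each of 2 host strains. By the study's tumor growth data, CC001, CC002 and CC075 were responder strains (10 isotype and 10 aPD1 tumors) and CC036, CC079 and CC080 were non-responder strains (9 and 9), while B6 and CC007 (5 and 5) carried no class here. All hosts other than B6 are F1 hybrids, every tumor grew from the same line, and a class is a property of 3 strains, so tumors of a strain are not independent samples of its class.

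PD-1 is an inhibitory receptor that T cells put on their surface after antigen stimulation and keep there when stimulation is chronic. When PD-L1 or PD-L2 on another cell binds it, PD-1 recruits tyrosine phosphatases that dampen signalling from the T cell receptor and from CD28. PD-L1 is induced by interferon gamma in many cell types, tumor macrophages among them, whereas PD-L2 is found mainly on dendritic cells and macrophages and is also induced through interleukin-4.

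The 3 loci are shown because the ligand genes are neighbors while the receptor gene lies on another chromosome. In GRCm38, Pdcd1 occupies chr1:94038305-94052553 on the minus strand, Cd274 chr19:29367455-29388095 on the plus strand and Pdcd1lg2 chr19:29410919-29471161 on the plus strand, with 22823 bases between the ends of the ligand genes. The stretches upstream of each start, taken from RefSeq (GRCm38.p6, all 3 members matched), lie at chr1:94052554-94052803 (minus strand), chr19:29367309-29367437 (plus strand, shortened at the first exon of a coding transcript of the neighboring Plgrkt, while a noncoding Plgrkt transcript reaches into it as far as 29367390) and chr19:29410669-29410918 (plus strand). They are written 5′ to 3′, and the capitals mark GGAAA or its complement, the core letters that NFAT factors of T cell activation bind.
Pdcd1: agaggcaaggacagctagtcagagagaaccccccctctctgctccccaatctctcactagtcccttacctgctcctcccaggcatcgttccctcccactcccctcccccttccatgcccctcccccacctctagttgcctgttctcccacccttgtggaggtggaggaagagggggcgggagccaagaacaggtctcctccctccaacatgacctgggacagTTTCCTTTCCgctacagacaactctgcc
Cd274: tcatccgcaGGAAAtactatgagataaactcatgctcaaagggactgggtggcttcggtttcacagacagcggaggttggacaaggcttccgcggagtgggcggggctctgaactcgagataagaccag
Pdcd1lg2: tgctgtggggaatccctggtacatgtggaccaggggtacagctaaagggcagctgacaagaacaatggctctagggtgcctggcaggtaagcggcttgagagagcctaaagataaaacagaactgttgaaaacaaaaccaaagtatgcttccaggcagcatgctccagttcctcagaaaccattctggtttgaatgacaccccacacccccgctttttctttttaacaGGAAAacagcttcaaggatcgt
In the 300-base windows around the starts (250 bases before, 50 after, both strands searched), GGAAA occurred 2 times for Pdcd1, 2 times for Cd274 and 1 time for Pdcd1lg2, and 61.3% of 27025 promoters held it. None of the 3 windows held GAAA and again GAAA with NN between (the site of interferon regulatory factors, in 3.49% of promoters) or TGANTCA (AP-1, 7.93%), which says only that these letters are not in these windows.

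The deposited table held 93126 cells with 414182018 unique molecular identifiers (UMIs, one per captured RNA molecule), a median of 3333.5 UMIs per cell and 53 to 3082 cells per tumor, and the authors had assigned each cell to 1 of 27 numbered clusters. Clusters are called here by number and, with "-like", by markers only. A total of 4990 barcode sequences occurred in more than 1 library, which touched 10.9% of cells, but any pair of libraries shared at most 1.52% of the barcodes of the smaller. Isotype and aPD1 specimens always carried different hashtags, so treatment and hashtag cannot be told apart. Levels below are counts-per-million values (CPM), that is UMIs scaled to the total of the cells named, for each tumor with at least 10 such cells.

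Pdcd1 was largely a T cell transcript. Its 5646 UMIs were spread so that the T and NK-like clusters, 12021 cells in all, held 93.1%, and cluster 3 alone held 50.1%. Cluster 3 is CD8 T-like, with Cd8a, Cd8b1 and Lag3 among its leading genes, and Pdcd1 itself is one of those, so its rank is a description of how the cells were clustered rather than a finding. Its pooled level was 302 CPM, and over 40 tumors it ran from 38.7 CPM through a median of 293.6 CPM to 457 CPM. Next came CD4 T-like cluster 10 at 238 CPM (94.1 to 483 over 21 tumors), CD8 T-like cluster 1 at 191 CPM (70.0 to 404 over 18 tumors) and CD8 T-like cluster 13 at 158 CPM. A lower tier was formed by the regulatory T-like cluster 8 at 92.1 CPM, cluster 7, which carries the naive-like genes Tcf7 and Lef1, at 84.1 CPM, and cluster 12, T and NK-like cells that also carry macrophage genes, at 81.0 CPM. The ranges over tumors of neighbors in this order overlapped throughout, and the interquartile range of cluster 3 (235 to 336 CPM) lay above those of clusters 7 and 8 (60.2 to 131 and 58.9 to 128 CPM) but not above that of cluster 10 (141 to 293 CPM).

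By cell, a Pdcd1 UMI was found in 51.9% of the 2809 cells of cluster 3 (Wilson 95% interval 50.1 to 53.7%), against 9.96% of cluster 7 and 0.328% of the 68059 macrophage-like cells, whose median depth of 3481 UMIs exceeded the 2823 of cluster 3. With cells thinned to 1000 UMIs the share in cluster 3 was 25.5%, still the highest of the clusters. NK-like cluster 24 sat near the bottom of the lymphocytes at 6.12 CPM. Outside the lymphocytes the highest level was in cluster 11, cells like migratory dendritic cells (Ccr7, Fscn1, Ccl22), at 11.6 CPM: 56 of its 1524 cells held a Pdcd1 UMI, and 3 of those 56 also held a UMI of a CD3 gene or Trac (5.36%), against 2.30% of all its cells, the Pdcd1 cells being deeper (median 4993.5 against 3652 UMIs). In macrophage-like cluster 26, 8 of 53 cells with a Pdcd1 UMI also held a UMI of a CD3 gene or Trac (15.1%), against 1.18% of all its cells. In macrophage-like cluster 2 these were 1 of 58 cells (1.72%), against 1.24%. The plot of the 3 genes by cluster shows the split between receptor and ligands.

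**Figure D1:**
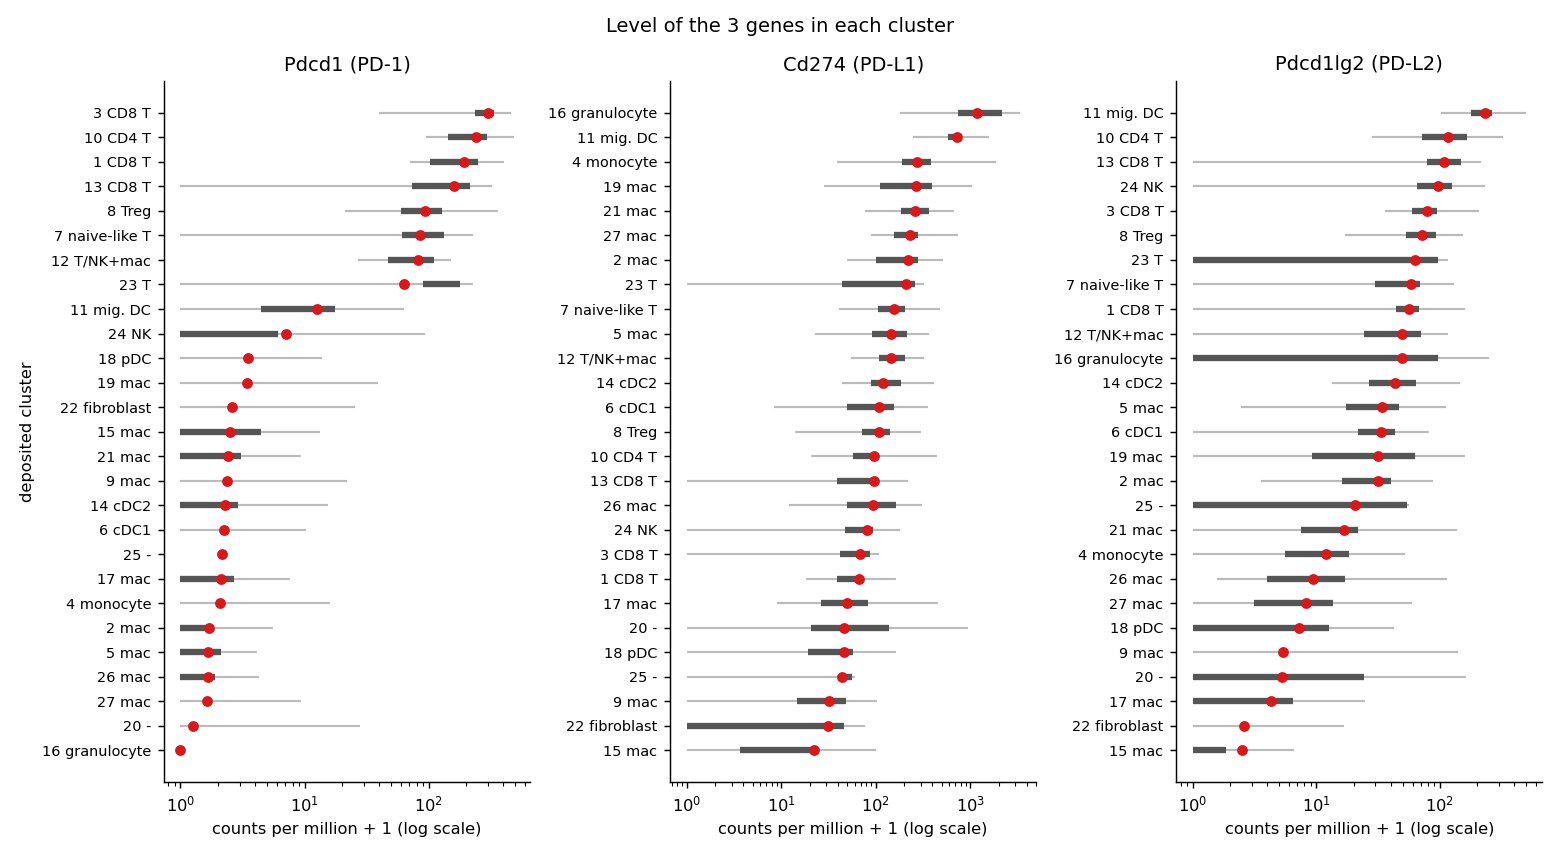
Level of each gene in the 27 numbered clusters (CPM + 1, log axis), with the pooled level as a red point, the interquartile range over tumors as a thick bar and the full range as a thin line. Pdcd1 peaks at 302 CPM in cluster 3, Cd274 at 1179 CPM in cluster 16 with cluster 11 next at 734 CPM, and Pdcd1lg2 at 229 CPM in cluster 11.

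Cd274 was the most abundant of the 3 as UMIs (63542), and macrophage-like cells held 76.4% of them. By CPM, however, it was highest in cluster 16, granulocyte-like cells led by S100a9 and Retnlg, at 1179 CPM (179 to 3348, median 1395, over 18 tumors), and in cluster 11 at 734 CPM (249 to 1588, median 683, over 44 tumors). These ranges overlapped, and the cells of cluster 16 were shallow, with a median of 815 UMIs, so that 71.1% of them dropped out on thinning to 1000 UMIs. Thinned to 500 UMIs, 30.4% of cluster 16 and 28.5% of cluster 11 held a Cd274 UMI, and no order of the pair was read.

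Macrophage-like clusters were graded. The clusters at the top were 4 (272 CPM), 19 (265 CPM), 21 (258 CPM), 27 (230 CPM) and 2 (217 CPM), the middle was cluster 5 (145 CPM), and the lowest were 26 (92.0 CPM), 17 (49.3 CPM), 9 (30.9 CPM) and 15 (21.5 CPM). Cluster 4 was the lowest of these clusters in the macrophage gene C1qa (104 CPM, against 1157 CPM in cluster 2). The macrophage-like set may thus include monocytes, and these were not separated here. Cd274 UMIs were found in T cell clusters too, at 156 CPM in cluster 7 and 67.4 CPM in cluster 3, where the receptor was highest, against 30.4 CPM in the fibroblast-like cluster 22. The part of free RNA in these levels was not tested. The gene most like Cd274 across the 27 clusters was Gm36043 (Pearson's r = 0.95 of log2 CPM, 10955 genes compared), a noncoding RNA annotated at chr19:29378749-29384951, inside the Cd274 locus. It was counted as a gene of its own, at 56.9 CPM at most (cluster 16). The sources used here do not say whether counting used strand. Whether reads of one were counted for the other was not tested. Nor was this tested for Pdcd1lg2 and the antisense RNA A930007I19Rik (chr19:29464750-29523159, minus strand), which overlaps its 3′ end. The next were Mxd1 (0.89), a MAX partner, and Pde4b (0.82), a cyclic AMP phosphodiesterase.

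Pdcd1lg2 was concentrated in cluster 11, at 229 CPM (102 to 494, median 224, over 44 tumors), with 49.0% of cells holding a UMI. Its lowest tumor there was under the pooled level of the next cluster, CD4 T-like cluster 10 at 115 CPM, which was followed by cluster 13 (106 CPM), NK-like cluster 24 (94.5 CPM) and cluster 3 (77.1 CPM). Macrophage-like cells averaged 18.8 CPM and, through their number, still held 49.3% of the 11450 UMIs, while T and NK-like cells held 22.03%. The genes most like it were Traf1 (r = 0.89), an adaptor of TNF receptors, Stat4 (0.89), which transmits interleukin-12 signals, and Cish (0.87), a feedback inhibitor of cytokine signalling. Those most like Pdcd1 were Themis (0.97), needed for T cell development, and the T cell receptor segments Trbv13-2, Trbv20 and Trbv13-1 (each 0.96).

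The ligands occurred together in single cells of cluster 11. Of its 1147 cells with a Cd274 UMI, 627 also held Pdcd1lg2 (54.7%), against 31.6% of the cells without Cd274. The first set was also deeper, with a median of 4226 against 2246 UMIs, and the part of depth in this difference was not tested. Among macrophage-like cells the corresponding shares were 12.3% and 3.51%. Across the 27 clusters the levels of Cd274 and Pdcd1lg2 went together (Pearson's r = 0.54), as did those of Pdcd1 and Pdcd1lg2 (0.64), while Pdcd1 and Cd274 did not (-0.04). These values describe clusters that share libraries and carry no test.

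In macrophage-like cells, Cd274 was higher in responder than in non-responder tumors after aPD1. The levels in the 10 responder aPD1 tumors ran from 115 CPM through a median of 242 CPM to 426 CPM. Those of the 9 non-responder aPD1 tumors ran from 41.0 CPM through 98.5 CPM to 226 CPM. With isotype antibody the responder tumors ran from 65.0 through 131 to 298 CPM and the non-responder tumors from 48.1 through 107 to 317 CPM. The groups overlapped under both treatments: with aPD1, 5 of 10 responder tumors exceeded every non-responder tumor and 7 of 9 non-responder tumors lay below every responder tumor, and with isotype those counts were 0 and 4. The means were 268 ± 114 CPM (SD, n = 10) against 110 ± 59.2 CPM (n = 9) with aPD1, and 162 ± 91.3 against 137 ± 105 CPM with isotype.

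Summed counts per tumor were tested with edgeR's quasi-likelihood test, and p-values were adjusted by Benjamini-Hochberg over all genes of a fit and called at 0.05. Within aPD1 tumors the class difference of Cd274 in all macrophage-like cells was 1.38 ± 0.38 on the log2 scale (± SE, adjusted p = 0.024), in a comparison that called 6.44% of all genes tested. Within isotype tumors it was 0.23 ± 0.38 (adjusted p = 1.0), in a comparison that called 33 of 11873 genes. Averaged over both treatments it was 0.80 ± 0.27 (adjusted p = 0.064, with 6.56% of genes called), and the same contrast with pool as a block gave 0.98 (adjusted p = 0.013). It was also called without CC001, without CC036, without pool 4 or without pool 8 (0.95 to 1.08, adjusted p = 0.019 to 0.028). The interaction of class and treatment was 1.15 ± 0.53 with an unadjusted p of 0.038 and an adjusted p of 0.87, so the difference between the treatments did not pass the test.

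The direction was shared by macrophage-like clusters taken singly. Of 10 such clusters, 9 could be fitted and Cd274 passed the filter on low counts in 8. Over both treatments it was higher in responder tumors in all 8, with a median log2 difference of 0.89, and was called in 4: cluster 2 (0.84 ± 0.25, adjusted p = 0.046), cluster 5 (0.93 ± 0.23, adjusted p = 0.012), cluster 17 (1.43 ± 0.32, adjusted p = 0.0095) and cluster 26 (1.24 ± 0.31, adjusted p = 0.0074). The same comparison called 3.83%, 4.3%, 1.5% and 7.59% of all genes in those clusters, respectively, and 1.63% in cluster 21, where Cd274 itself missed the threshold (0.74 ± 0.21, adjusted p = 0.061). Cluster 21 was called with pool as a block (0.86, adjusted p = 0.0045), with DESeq2 (adjusted p = 0.049), with a term for pools 1 to 6 against 7 to 12 (0.037) and without the filter on low counts (0.0087). Within aPD1 tumors the calls were clusters 2 (1.34 ± 0.35, background 7.7%), 5 (1.29 ± 0.32, 4.7%), 21 (1.15 ± 0.30, 1.25%) and 26 (1.87 ± 0.42, 7.33%). Within isotype tumors none of the 8 was called (lowest adjusted p = 0.57), 2 had an unadjusted p under 0.05, and 7 were higher in responder tumors. Few genes in all were called there. Clusters 2, 5, 21 and 26 gave 21 of 9450, 23 of 8169, 7 of 5447 and 30 of 9882.

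These class calls rest on few strains. With strains in place of tumors as replicates, 3 a class, none of the 4 clusters called over both treatments remained called (adjusted p = 0.14 to 0.43) and the difference within aPD1 tumors was 1.34 in all macrophage-like cells (adjusted p = 0.41). Without CC079 the log2 difference over both treatments was 0.52 in cluster 2, 0.61 in cluster 5, 0.80 in cluster 26 and 1.15 in cluster 17, and without CC075 it was 0.48, 0.66 and 0.82 in clusters 2, 5 and 26, none of them called. Cluster 2 also lost its call without CC002 or CC080, by library size alone (adjusted p = 0.061), without the tumors sharing an animal identifier (0.077) and without tumors under 500 cells (0.068), and cluster 5 without CC002. Within pools 1 to 6 and within pools 7 to 12 the differences were 0.72 and 0.88 in cluster 2, 1.03 and 0.78 in cluster 5, and 1.12 and 1.26 in cluster 26, again without a call, and cluster 17 was not called within pools 7 to 12 (1.54, adjusted p = 0.38). Without CC079 or CC075 the difference within aPD1 tumors in all macrophage-like cells was 1.09 or 1.08 (adjusted p = 0.11 and 0.16), while without CC080, pool 2, pool 9 or pool 11 the adjusted p was 0.059 to 0.088. The aPD1 calls were also lost without CC075, CC079 or CC080 in cluster 2 (adjusted p = 0.068 to 0.084), without CC002, CC075 or CC079 in cluster 5 (0.055 to 0.077) and without CC075 or CC079 in cluster 21 (0.45 and 0.21). Within pools 1 to 6 they were lost in clusters 5 and 21 (adjusted p = 0.062 and 0.42), and within pools 7 to 12 in clusters 2, 5 and 21 (0.19, 0.21 and 0.25). Cluster 21 was also lost by library size alone (0.052) and without the tumors sharing an animal identifier (0.077). In cluster 26 the aPD1 difference stayed past the threshold without any single strain (adjusted p at most 0.031), but not within pools 7 to 12 (1.69, adjusted p = 0.081). With strain as replicate the aPD1 calls of clusters 2, 5, 21 and 26 were all lost (adjusted p = 0.26, 0.21, 0.56 and 0.25).

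**Figure D2:**
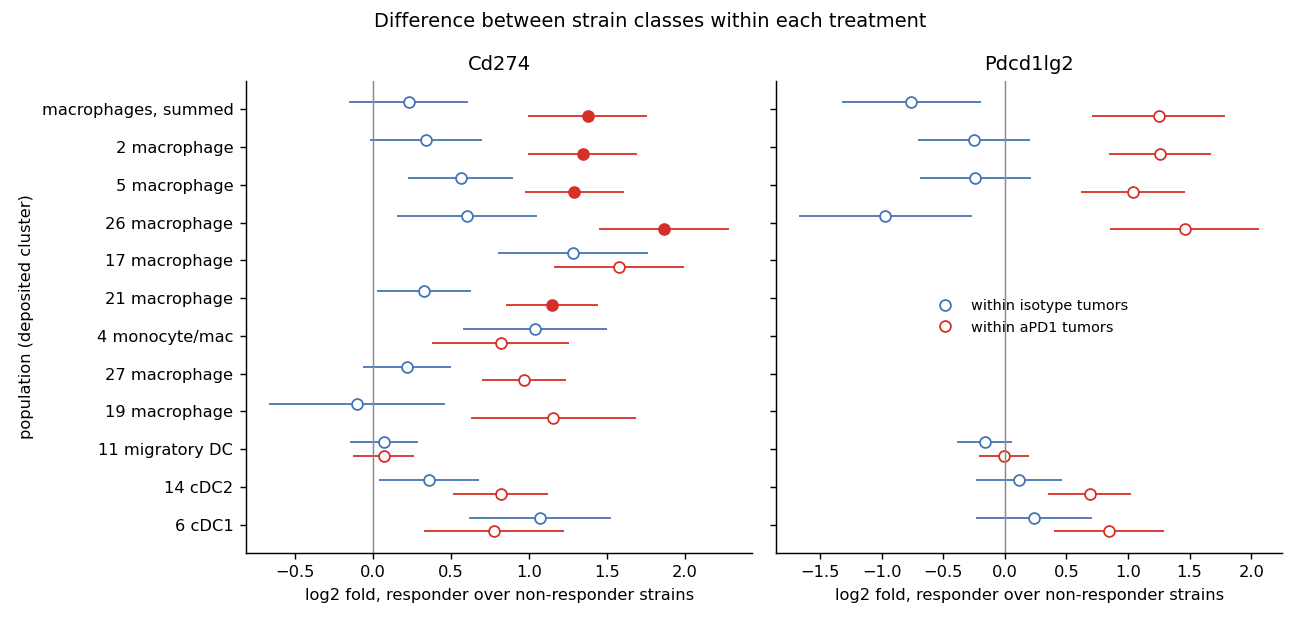
Log2 difference of Cd274 (left) and Pdcd1lg2 (right) between responder and non-responder tumors in single populations, within isotype tumors (blue) and within aPD1 tumors (red), as points with SE bars. Filled points passed the threshold, all of them Cd274 in macrophage-like populations with aPD1, and both Cd274 points of cluster 11 lie at 0.07.

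In cells like migratory dendritic cells the classes lay close together. Cd274 in cluster 11 averaged 731 ± 194 CPM (SD, n = 10) in responder and 697 ± 356 CPM (n = 9) in non-responder aPD1 tumors, and 713 ± 238 (n = 7) and 685 ± 113 CPM (n = 9) with isotype. The ranges overlapped almost wholly, from 452 to 1024 CPM against 348 to 1588 CPM with aPD1. The class difference was 0.07 ± 0.15 on the log2 scale (edgeR, adjusted p = 0.92), in a fit that called 0.434% of 2768 genes. The other dendritic clusters, 6 (cDC1-like, 0.92 ± 0.32, adjusted p = 0.28) and 14 (cDC2-like, 0.59 ± 0.22, adjusted p = 0.27), lay on the side of the macrophages without being called.

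The contrast between the populations was also computed within tumors. It was chosen after seeing the data, so its p-values restate a difference already seen in these tumors and are no separate support for it. The log2 level of Cd274 in macrophage-like cells minus that in cluster 11 was 1.19 higher in responder than in non-responder aPD1 tumors (-1.52 against -2.71, n = 10 and 9, two-sided exact permutation test, p = 0.000195, adjusted over 12 tests p = 0.00117). Over both treatments it was 0.80 higher (n = 17 and 18, permutation p = 0.00466, adjusted p = 0.00711), and with isotype 0.27 higher (n = 7 and 9, exact permutation p = 0.54). Tumors of one strain entered as separate units here as well.

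Host strains spanned a wide range of Cd274. In macrophage-like cells, tumors of CC075 hosts stood highest by mean: 260.4, 189 and 289 CPM with isotype and 426, 325 and 419 CPM with aPD1 in pools 10, 11 and 9. Tumors of CC079 hosts stood lowest by mean, at 51.4, 48.1 and 48.9 CPM with isotype and 83.3, 60.7 and 41.0 CPM with aPD1 in pools 1, 2 and 5. No CC079 tumor reached any CC075 tumor, the highest of the former being 83.3 CPM and the lowest of the latter 189 CPM. These strains were picked here as the lowest and the highest. No pool held tumors of both, so strain and pool cannot be told apart for this pair.

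By mean the other strains fell between CC079 and CC075, and they overlapped each other. Single tumors of other strains also lay within the ranges of CC075 and of CC079. B6 tumors averaged 220.2 ± 76.5 CPM (SD, n = 6), CC002 194 ± 78.2 (n = 6), CC036 167 ± 85.6 (n = 6), CC001 154 ± 106 (n = 8), CC007 151 ± 65.0 (n = 4) and CC080 148 ± 88.2 CPM (n = 6). Across the 8 strains the fitted range was 2.54 on the log2 scale (edgeR F test over strains, adjusted p = 0.00017), in a comparison that called 53.2% of genes in all macrophage-like cells. Strain differences were called in 7 of the 8 macrophage-like clusters tested, cluster 19 being the exception, where 126 of 2362 genes were called. Among the 7 were clusters 2, 5 and 26, where 42.7%, 25.8% and 34.4% of all genes were called. The strain fits of clusters 4, 17, 21 and 27 called 837 of 3786, 509 of 5890, 929 of 4512 and 1048 of 4197 genes. Without CC079 the range in all macrophage-like cells was 1.05 (adjusted p = 0.12), and within pools 7 to 12, which held no CC079 tumor, it was 1.18 (adjusted p = 0.23). Cluster 2 too lost its call without CC079 (1.10, adjusted p = 0.075), whereas clusters 5 and 26 kept theirs without any single strain. Within pools 7 to 12 clusters 2, 5 and 26 were not called (1.48, 1.28 and 2.13, adjusted p = 0.071, 0.079 and 0.061). In cluster 11 strain means ran from 546 ± 131 CPM in CC079 to 863 ± 365 CPM in CC036 (n = 6 each), a range of 0.59 on the log2 scale that was not called (adjusted p = 0.26, 14.2% of genes called). Leaving the filter on low counts out gave an adjusted p of 0.049 there.

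**Figure D3:**
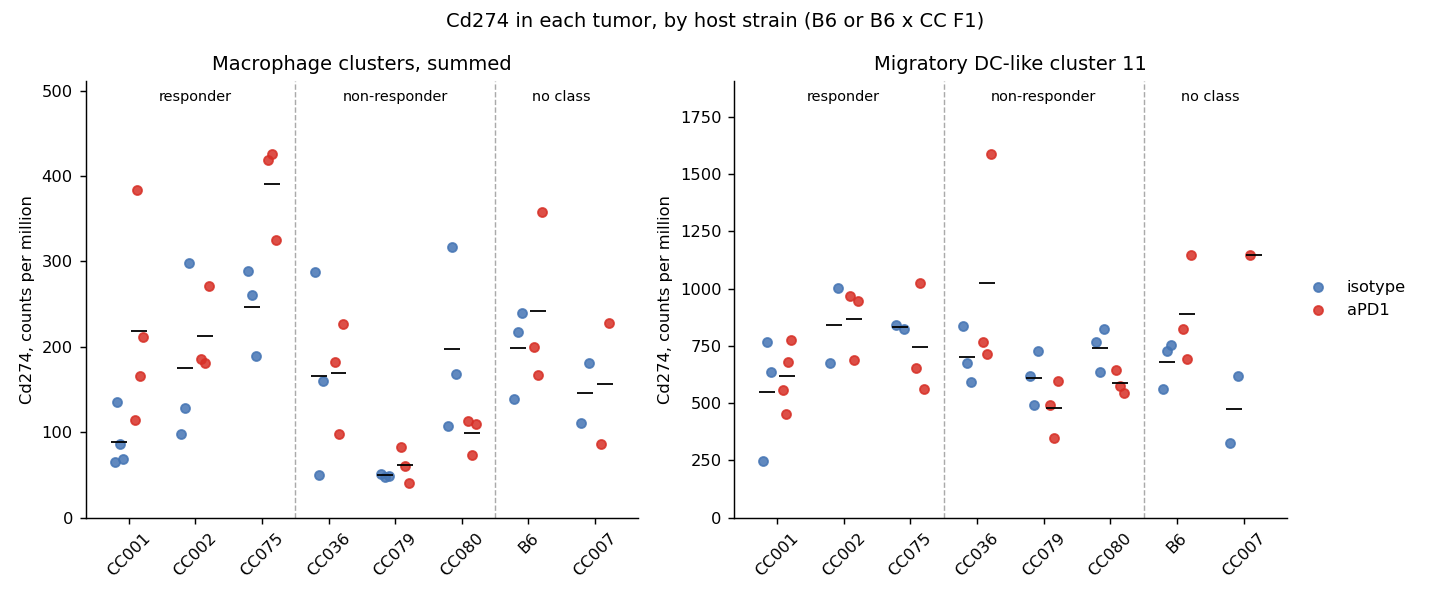
Cd274 level (CPM) in each tumor by host strain and treatment, in all macrophage-like cells (left) and in cluster 11 (right), with group means as short bars. On the left CC075 tumors lie at 189 to 426 CPM and CC079 tumors at 41.0 to 83.3 CPM, and on the right the strains overlap.

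Treatment itself left no called change in the ligands. Pairing each isotype tumor with the aPD1 tumor of its strain and pool, Cd274 of macrophage-like cells was higher with aPD1 in 17 of 24 pairs, among them 9 of 10 responder pairs (median log2 ratio 0.79) and 5 of 9 non-responder pairs (0.09). In CC001 the pairs were 65.0 and 115 CPM, 135 and 384 CPM, 85.9 and 165 CPM, and 68.6 and 212 CPM, isotype first. In CC002 they were 98.4 and 185 CPM, 128 and 181 CPM, and 298 and 272 CPM, the last being the single responder pair that went down. In CC080, a non-responder strain, they were 168 and 109 CPM, 107 and 114 CPM, and 317 and 73.6 CPM. The CC080 isotype tumor of pool 3 and aPD1 tumor of pool 4 share an animal identifier. The pairs of CC075 and CC079 are given above, and those of CC036 are not printed.

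Fitted over the 8 strains, the change with aPD1 was 0.37 ± 0.19 on the log2 scale in all macrophage-like cells (unadjusted p = 0.058, adjusted p = 1.0), 0.50 ± 0.18 in cluster 2 (adjusted p = 0.70) and 0.46 ± 0.16 in cluster 5 (adjusted p = 0.69). In responder strains it was 0.82 ± 0.37 (adjusted p = 0.71). edgeR called no gene at all for aPD1 over the 8 strains in macrophage-like cells (0.0% of 11307, 310 with an unadjusted p under 0.05), and DESeq2 none (301 under 0.05). Without the filter on low counts Cd274 was called for aPD1 in clusters 2, 5 and 26 (adjusted p = 1.5e-09, 1.6e-06 and 8.3e-07). The other 11 alternatives of each gave no call. The unfiltered fits tested 22236, 21009 and 22590 genes. How many genes any fit without that filter called was not counted, so these calls have no background share. The filtered fits for aPD1 called 0 of 8958, 0 of 7627 and 0 of 9325 genes in these clusters. The unfiltered changes were 0.52 ± 0.073, 0.47 ± 0.078 and 0.47 ± 0.077. In clusters 2 and 5 the estimate thus hardly moved while its SE fell, and the reason was not tested. In cluster 11 the change was 0.11 ± 0.12 (adjusted p = 1.0).

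Pdcd1lg2 in macrophage-like cells was higher with aPD1 in 17 of 24 pairs, the same count as for Cd274. Among these were 9 of 10 responder pairs (median log2 ratio 0.71) and 5 of 9 non-responder pairs (0.22). Unlike Cd274, it had no called class difference within aPD1 tumors. With aPD1 it ran from 6.96 through 27.5 to 46.0 CPM in responder and from 3.3 through 14.7 to 26.97 CPM in non-responder tumors, and with isotype from 2.8 through 12.4 to 29.5 CPM and from 1.8 through 11.2 to 78.3 CPM. Groups overlapped under both treatments, and the highest tumors of all classed groups were non-responder isotype tumors of CC080 and CC036. The class difference over both treatments was 0.24 ± 0.39 (edgeR, adjusted p = 0.80), and within aPD1 tumors 1.25 ± 0.54 (adjusted p = 0.17) in all macrophage-like cells and 1.26 ± 0.41 (adjusted p = 0.051) in cluster 2. It passed the low-count filter in 3 macrophage-like clusters, 2, 5 and 26, and was higher in responder aPD1 tumors in all 3 without a call. In cluster 11 the class difference was -0.08 ± 0.15 (adjusted p = 0.91).

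Its range over strains rested on CC079. Macrophage-like cells of the 6 CC079 tumors held 1.8 to 8.2 CPM of Pdcd1lg2 (mean 4.0 ± 2.2), against means of 15.4 to 28.2 CPM in the other strains. The range over strains was 3.22 on the log2 scale (edgeR F test, adjusted p = 0.0032), in a comparison that called 53.2% of all genes. It was also called in clusters 2, 5 and 26, beside 42.7%, 25.8% and 34.4% of all genes, and in cluster 14, beside 882 of 6376 genes. Without CC079 it was 1.25 (adjusted p = 0.57), and with pool as a block it was 3.16 (adjusted p = 0.14). In cluster 11 CC079 was not low, with 205 ± 51.4 CPM against 184 ± 59.8 CPM in CC001 and 259 ± 55.0 CPM in CC002, and the strain test gave an adjusted p of 0.74.

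For the receptor, comparisons were made inside single T cell clusters, since the classes differed in which T cells they held. Over all T and NK-like cells Pdcd1 stood at 192 CPM in responder and 111 CPM in non-responder tumors, but cluster 3 made up 33.2% of those cells and 37.4% of their UMIs in responder tumors, and 11.9% and 16.02% in non-responder tumors. Responder cluster shares of UMIs combined with non-responder levels within clusters gave 156 CPM, and non-responder shares with responder levels gave 133 CPM. These sums pool all tumors of a class and carry no test, and not every cluster was higher in responder tumors: cluster 10 stood at 187 CPM there and at 285 CPM in non-responder tumors.

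In cluster 3, Pdcd1 ran from 163 through 333 to 457 CPM in 9 responder isotype tumors and from 134 through 271 to 315 CPM in 7 non-responder isotype tumors. With aPD1 it ran from 185 through 292 to 357 CPM in 10 responder tumors, and the 5 non-responder tumors had a mean of 242 ± 102 CPM, from 107 to 380 CPM. Those 5 were of CC036 and CC080 hosts only, as the CC079 aPD1 tumors held 1, 0 and 3 cells of cluster 3. With isotype, CC079 entered through tumors of 11 and 13 cells. With isotype, 7 of 9 responder tumors exceeded every non-responder tumor, and with aPD1 none did. The lowest of those 7 stood at 314.9 CPM, against 314.7 CPM in the highest non-responder tumor. How many other genes were separated to this degree was not counted, and the class fit within isotype tumors called 2 of 4031 genes. The class difference was 0.31 ± 0.16 on the log2 scale (edgeR, adjusted p = 0.49, with 0.769% of 4031 genes called). In cluster 7 it was 0.89 ± 0.31 (adjusted p = 0.40) and in cluster 8 it was 0.23 ± 0.25 (adjusted p = 0.74). No T cell cluster was called, and of the 3 in which Pdcd1 could be tested cluster 7 alone had an unadjusted p under 0.05. The class fits of clusters 7 and 8 called 5 of 1780 and 5 of 3012 genes. Without the low-count filter cluster 7 was called (0.89 ± 0.23, adjusted p = 0.031). In that cluster 13 cells of 1 CC079 tumor gave the highest value. CC079 is a non-responder strain, so this value lay against the direction of the difference.

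aPD1 left Pdcd1 mRNA of cluster 3 slightly lower without a call. It was higher with aPD1 in 6 of 18 pairs, and the fitted change was -0.25 ± 0.12 (unadjusted p = 0.047, adjusted p = 1.0) over the 8 strains, in a fit in which edgeR called 0.0% of 2709 genes, 98 had an unadjusted p under 0.05 and DESeq2 called none. Across clusters 1, 8, 10 and 13 the change lay between -0.12 and 0.31, none called. In clusters 7 and 12 Pdcd1 did not pass the filter on low counts of that fit, and in cluster 7 it averaged 99.4 ± 53.3 CPM (SD, n = 22) with aPD1 and 79.4 ± 54.5 CPM (n = 22) with isotype, higher with aPD1 in 11 of 20 pairs. Strain differences in cluster 3 were called, with a range of 1.30 on the log2 scale (adjusted p = 0.016, 14.2% of genes called). The lowest means were those of CC007 (tumors at 38.7, 158 and 249.7 CPM) and CC079 (134 and 202 CPM), and the highest those of CC001 (340.2 ± 82.0 CPM, n = 8) and B6 (338 ± 42.3 CPM, n = 6). This call was lost with at least 20 cells per tumor (adjusted p = 0.18), without CC007 (0.084), without CC001 (0.11), without pool 1 (0.063), with a term for pools 1 to 6 against 7 to 12 (0.055), within pools 1 to 6 (0.21) and within pools 7 to 12 (0.39).

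**Figure D4:**
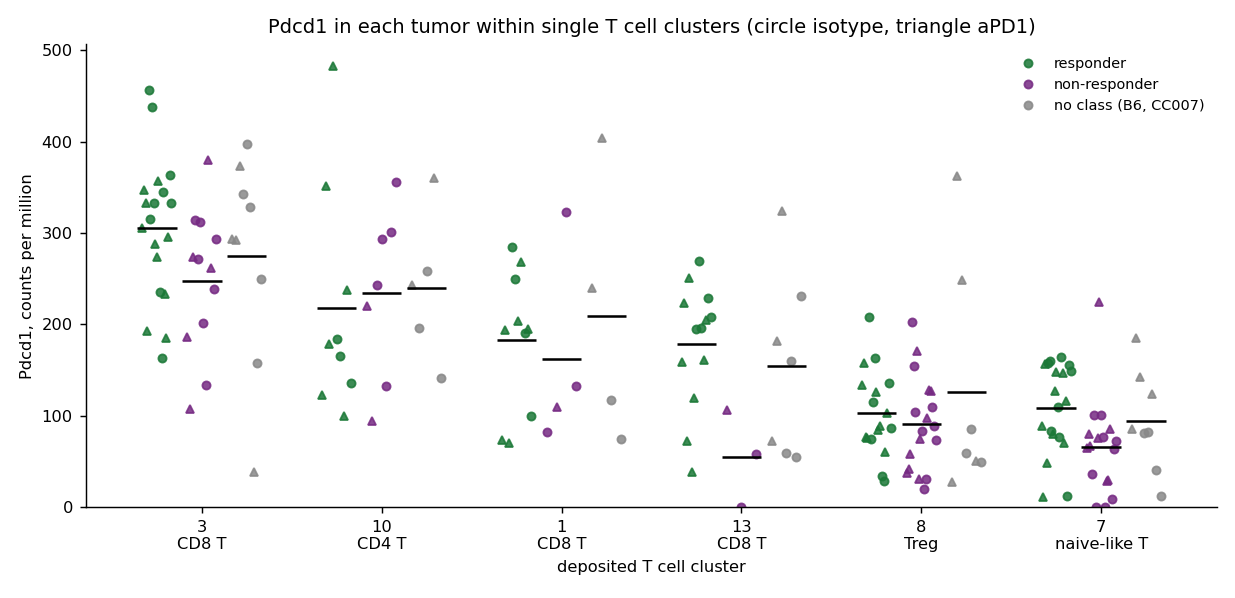
Pdcd1 level (CPM) per tumor in 6 single T cell clusters, colored by response class, with circles for isotype, triangles for aPD1 and bars for the mean of a class. In cluster 3 the means are 305 CPM in responder and 248 CPM in non-responder tumors, with overlapping points.

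A list of 30 further genes of the pathway was read in the same fits. Among them Irf1, a factor that carries the interferon gamma signal to the Cd274 gene, was higher in responder tumors over both treatments in clusters 5 (0.57 ± 0.16, edgeR, adjusted p = 0.031) and 26 (0.63 ± 0.19, adjusted p = 0.036). Within aPD1 tumors Irf1 was called in the same clusters (0.79 and 1.01), where 4.7% and 7.33% of all genes were called. In all macrophage-like cells over both treatments it missed the threshold (0.40 ± 0.22, adjusted p = 0.32). There 1 of 23 genes tested was called, Ptpn6, the phosphatase SHP-1, at 0.17 ± 0.05 (adjusted p = 0.046), beside 6.56% of all genes, and the median difference of the list was 0.02 against -0.00 over all genes. In cluster 26 Ptpn6 (0.26) and Batf (0.34), an AP-1 family factor, were called too, both higher in responder tumors. Over both treatments 1 of 22 listed genes tested was called in cluster 2, 2 of 20 in cluster 5 and 4 of 21 in cluster 26, beside 3.83%, 4.3% and 7.59% of all genes.

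Relb, an NF-kappaB subunit of dendritic cell maturation, was called in cluster 2 over both treatments (0.35 ± 0.10, adjusted p = 0.047) and within aPD1 tumors (0.54), where Prdm1, a transcriptional repressor, was called too (0.72). Within aPD1 tumors 7.7% of all genes were called in that cluster. Cd80, which binds PD-L1 on the same cell, was at a class difference near 0 in all macrophage-like cells (-0.06 ± 0.23, adjusted p = 0.94). In cluster 11, 0 of 14 genes were called for class by edgeR, beside 0.434% of all genes, with Irf1 at 0.06 ± 0.19. In cluster 3, 0 of 20 were called, beside 0.769% of all genes, and Tox, a factor of T cell exhaustion that maintains Pdcd1, was at -0.44 ± 0.18 (adjusted p = 0.35). No pathway gene was called for aPD1 over the 8 strains in any of these populations, and neither was any other gene. By strain, 15 of 22 were called in all macrophage-like cells (53.2% of all genes), 3 of 17 in cluster 3 (Irf4, Ptpn6 and Jak2, beside 14.2%) and 0 of 11 in cluster 11 (14.2%).

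Across tumors, Cd274 of macrophage-like cells rose with the Ifng level of the whole tumor sample. Ifng encodes interferon gamma, and its level was taken over all cells. The number of T and NK cells and the Ifng of each cell were not separated here. Ifng ran from 0.741 through 3.16 to 6.02 CPM in CC079 tumors and from 22.1 through 125 to 319 CPM in CC075 tumors, the strains lowest and highest in Cd274. Medians of the other strains did not follow class. They were 19.7 CPM in CC001 and 85.8 in CC002, 42.3 in CC036 and 14.5 in CC080, 85.2 in B6 and 61.9 in CC007. The highest tumor was of CC002, at 698 CPM. Over 48 tumors Pearson's r of log2 levels was 0.79 and Spearman's rho 0.80 (permutation p = 1e-05, the smallest that 100000 permutations can give, adjusted over 9 relations p = 1.5e-05). Without the 2 tumors farthest from the median Ifng level r was 0.80. It was 0.81 in pools 1 to 6, 0.65 in pools 7 to 12 (permutation p = 0.00046), 0.80 in isotype and 0.83 in aPD1 tumors, 0.70 in responder and 0.80 in non-responder tumors, and 0.63 after centring on strain means. Single clusters gave 0.77 (cluster 2), 0.75 (cluster 5) and 0.85 (cluster 26). The permutations for these relations treated tumors as separate units, although tumors of a strain or of a pool are not independent.

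**Figure D5:**
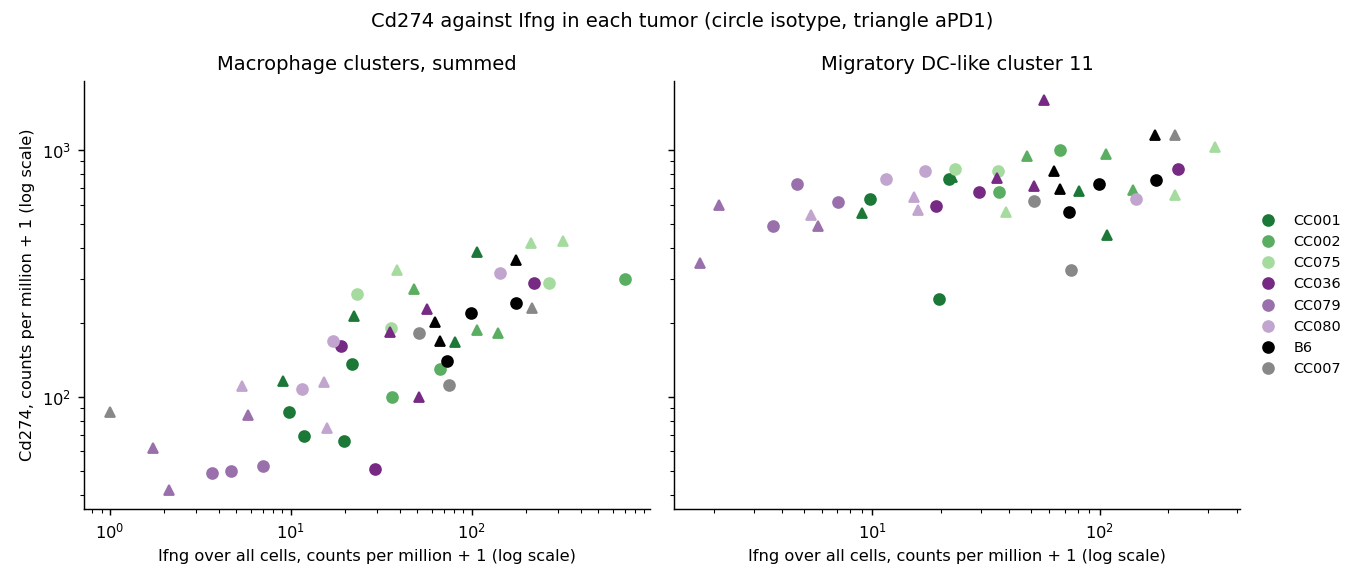
Cd274 of all macrophage-like cells (left) and of cluster 11 (right) against Ifng of all cells, 1 point per tumor, both axes as CPM + 1 on a log scale, colored by strain with circles for isotype and triangles for aPD1. CC079 tumors occupy the lower left of the left panel, where r over 48 tumors is 0.79, and r in the right panel is 0.43.

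The same relation was computed for the other members and for cluster 11, and differences between the correlations were not tested. For Cd274 of cluster 11, r was 0.43 (n = 44, permutation p = 0.00321, adjusted p = 0.00413), and it was 0.26 within pools 1 to 6 (permutation p = 0.237) and 0.24 after centring on strains (permutation p = 0.124). By treatment it was 0.62 in aPD1 tumors (permutation p = 0.00135) and 0.14 in isotype tumors (permutation p = 0.566), and by class 0.61 in non-responder (permutation p = 0.00679) and 0.32 in responder tumors (permutation p = 0.219). For Pdcd1lg2 of macrophage-like cells r was 0.74 (n = 48, permutation p = 1e-05), with 0.90 in pools 1 to 6 but 0.35 in pools 7 to 12 (permutation p = 0.0945), 0.48 in responder tumors (permutation p = 0.0315) and 0.64 after centring on strains. For Pdcd1lg2 of cluster 2 r was 0.61 (n = 47, permutation p = 1e-05), with 0.86 in pools 1 to 6, 0.15 in pools 7 to 12 (permutation p = 0.496), 0.20 in responder tumors (permutation p = 0.409) and 0.28 after centring on strains (permutation p = 0.0549). For Pdcd1lg2 of cluster 11 it was 0.31 (n = 44, permutation p = 0.0388, adjusted p = 0.0437), while Spearman's rho was 0.30 and missed the threshold (permutation p = 0.0512, adjusted p = 0.0576). Within either set of pools, either treatment or either class it was 0.18 to 0.40 (permutation p = 0.1 to 0.406), and after centring on strains 0.35 (permutation p = 0.0211). For Pdcd1 of cluster 3 it was -0.06 (n = 40, permutation p = 0.708), and Spearman's rho was -0.04.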

How the data were processed

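The authors aligned and counted reads with Cell Ranger against GRCm38 (mm10) and deposited UMI counts per gene and cell with a table of strain, treatment, pool and cluster, made in Seurat 5.0.1; cells over their mitochondrial and ribosomal limits had been removed, doublets were not called anew, and strand use in counting is not given in the sources used here. Groups came from the pool labels and that table, and response classes from the study. Labels give an animal for each specimen, and 1 identifier occurs for both an isotype and an aPD1 CC080 tumor.

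Counts were summed per tumor and population (at least 10 cells), filtered by expression, scaled by TMM and fitted with edgeR 4.0.16 (R 4.3.3, limma 3.58.1; quasi-likelihood tests, 4 class by treatment groups, or strain and treatment), adjusted by Benjamini-Hochberg over all genes. The scripts were tested on simulated data. DESeq2 1.42.0, no low-count filter, pool blocks, library subsets and leaving out strains or pools were alternatives. Permutation tests were two-sided on log2(CPM + 1). Intervals on shares of cells are Wilson 95% intervals and cover counting error only. Isotype and aPD1 tumors of a strain deviated together within a pool (median correlation 0.43 over 24 pairs, lowest -0.09). The median was 0.22 for a strain across pools, 0.18 for different strains of a pool and -0.05 for unrelated pairs. Deviations were from the mean of class and treatment, so strain differences enter them. A pool is a shared library by its label.

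The members and lists were chosen with earlier results of these data known. Named pathway genes are those past the threshold in a contrast, up to 5 per population, and Irf1, Tox and Cd80, and 1 gene of the list is not reported here. Genes most like a member are the 5 with the highest correlation over clusters, of which some are given. Proteins were not used here.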

Additional observations from a re-analysis of the deposited data

Results flagged for a closer look

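Groups of 4 to 10 tumors were searched for a tumor whose distance to its nearest neighbor was large against the range of its group, and 3 of 52 groups held one, where chance gives about 1 in 20. In cluster 7, the CC079 aPD1 tumor of pool 5 stood at 224.7 CPM of Pdcd1 among 8 non-responder aPD1 tumors, the next being at 85.2 CPM, from 5 UMIs in 13 cells. In cluster 17, the CC075 aPD1 tumor of pool 9 stood at 452 CPM of Cd274 among 8 responder aPD1 tumors, the next being at 208 CPM, from 32 UMIs in 12 cells. In cluster 11, the CC036 aPD1 tumor of pool 10 stood at 1588 CPM of Cd274 among 9 non-responder aPD1 tumors, the next being at 769 CPM, from 253 UMIs in 32 cells.

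The class difference of Cd274 in macrophage-like cells, less that in cluster 11 of the same tumor, passed the permutation test in 8 of 12 comparisons. For all macrophage-like cells it was 0.80 on the log2 scale over both treatments and 1.19 within aPD1 tumors. For cluster 2 it was 0.80 and 1.21, for cluster 5 it was 0.91 and 1.09, and for cluster 26 it was 1.10 and 1.61. The 4 comparisons within isotype tumors gave 0.21 to 0.61 and did not pass. All 12 were chosen after seeing the data and are nested. Clusters 2, 5 and 26 are part of all macrophage-like cells, and aPD1 tumors are part of both treatments.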

How the results depend on the processing

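Under alternatives other than leaving out a strain or pool, 502 values kept their direction and side of the threshold, 54 lost a call, 12 gained one, 7 changed sign and 1 moved. With 1 strain or pool left out these counts were 446, 31, 6, 9 and none. The cause was not tested where a call was lost or gained. The split into pools 1 to 6 and 7 to 12 in the edgeR fits was chosen after seeing the data. So were the omission of tumors under 500 cells, the class within each treatment and macrophage-like cells less cluster 11. Values centred on the strain mean, the Ifng relations within each class and Ifng with single clusters were also chosen then.

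For the class difference of Cd274 over both treatments, calls were lost with strain as replicate (0.86 in cluster 2, 1.01 in cluster 5, 1.50 in cluster 17 and 1.33 in cluster 26), which leaves 3 strains a class, in pools 1 to 6 alone (0.72, 1.03 and 1.12 in clusters 2, 5 and 26) and in pools 7 to 12 alone (0.88, 0.78, 1.54 and 1.26 in clusters 2, 5, 17 and 26). Cluster 2 also lost its call by library size alone (0.81), without the tumors sharing an animal identifier (0.82) and without tumors under 500 cells (0.78). In all macrophage-like cells the difference passed with DESeq2 (0.80), with pool as replicate block (0.98) and with a term for pools 1 to 6 against 7 to 12 (0.75). Within aPD1 tumors it did not pass with strain as replicate (1.34), in pools 1 to 6 (1.54) or in pools 7 to 12 (1.19). The strain test of Cd274 in pools 7 to 12 gave 1.18.

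For Pdcd1lg2 of macrophage-like cells the strain range was 3.16 with the pool block and 1.25 in pools 7 to 12, neither called, and its class difference was -0.12 in pools 7 to 12. For Pdcd1 of cluster 3 the strain range was not called with at least 20 cells (1.18), with a term for pools 1 to 6 against 7 to 12 (1.29), in pools 1 to 6 (1.21) or in pools 7 to 12 (1.37). Uncalled values changed sign for Pdcd1 with aPD1 in non-responder strains (0.41 in pools 1 to 6), for its interaction (0.32 in pools 7 to 12), for Cd274 with aPD1 in non-responder strains (0.027 with strain as replicate) and for r of Pdcd1 with Ifng (0.18 in pools 1 to 6, 0.17 in isotype and 0.25 in non-responder tumors). For Pdcd1lg2 with Ifng, r was 0.35 in pools 7 to 12. The pool block changed no other call of those printed in the report than the ones named here and that of Cd274 in cluster 21, 0.86.

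With 1 strain or pool left out, the class difference of Cd274 ran from -0.053 to 0.25 in cluster 11, 1.15 to 1.82 in cluster 17, 0.48 to 1.16 in cluster 2, 0.80 to 1.57 in cluster 26, 0.61 to 1.21 in cluster 5 and 0.45 to 1.08 in all macrophage-like cells, there 1.08 to 1.81 within aPD1 tumors, with a strain range of 1.05 to 2.70 and a change with aPD1 in non-responder strains of -0.63 to 0.15. For Pdcd1 of cluster 3 the strain range ran from 1.17 to 1.47, the change in non-responder strains from -0.41 to 0.11 and the interaction from -0.45 to 0.16, and in cluster 8 the class difference ran from -0.15 to 0.52. For Pdcd1lg2 of macrophage-like cells the class difference ran from -0.25 to 0.66 and the strain range from 1.25 to 3.60.

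After thinning to 1000 UMIs a cell, the cluster with the highest share of Cd274-positive cells was 11. Counts limit Pdcd1lg2 in small macrophage-like clusters and Pdcd1 in small T cell clusters.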

Other observations

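Ligand UMIs were also found in T and NK-like cells. A Pdcd1lg2 UMI was held by 19.9% of cells of cluster 3 (median depth 2823 UMIs), against 0.687% of the fibroblast-like cluster 22 (4199.5 UMIs). Lyz2, a macrophage gene, stood at 49.0 CPM in cluster 3 and 6509.8 CPM in cluster 2, but at 2866 CPM in cluster 12, which is among the T and NK-like cells, and doublets were not called. Pdcd1lg2 stood at 75.1 CPM over all T and NK-like cells, against 18.8 CPM in macrophage-like cells, and ran from 35.1 to 127 CPM over 47 tumors. In cluster 3 it was 78.8 ± 22.9 CPM (SD, n = 10) in responder aPD1 and 74.1 ± 40.1 CPM (n = 9) in responder isotype tumors, and 60.9 ± 19.8 CPM (n = 5) and 75.0 ± 31.5 CPM (n = 7) in the non-responder ones, with overlapping ranges. Cd274 could be tested for class in 3 T and NK-like clusters and Pdcd1lg2 in 2, and edgeR called none (lowest adjusted p = 0.85 and 0.68, with 0 at an unadjusted p under 0.05). The class fits of clusters 3, 7, 8 and 24 called 31 of 4031, 5 of 1780, 5 of 3012 and 2 of 1515 genes. With aPD1 in non-responder strains Cd274 lay 0.27 to 1.13 higher on the log2 scale in the 3 clusters, 1 of them at an unadjusted p under 0.05 and none called (lowest adjusted p = 0.64). That comparison called 1 of 4031 genes in cluster 3 and no gene in clusters 7, 8 and 24. In the sum over all cells of a tumor, the class difference within aPD1 tumors was 1.98 ± 0.59 (log2, SE) for Pdcd1 (edgeR adjusted p = 0.062) and 1.13 ± 0.33 for Cd274 (adjusted p = 0.058), not called. Such sums hold both the makeup of the tumor and the level within its cells.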
